A study of Mus musculus with 30 samples.

Results

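The microRNA genes followed here in mouse lung have mature products with described targets in the extracellular matrix (Mir145a, Mir27a, Mir23a, Mir491, Mir29a and Mir29b-1, 6 in all). They are the ones that the study singled out in bleomycin injured old Zmpste24 deficient lungs. For each, the probe set that names the gene alone was taken. Every one of the 6 had exactly 1 such probe set, and they stand among 478 microRNA genes and 22180 genes of any kind with a probe set of their own. Whole-lung RNA was measured on Affymetrix Mouse Gene 2.0 ST microarrays, 3 in each of 10 groups. All values are deposited probe set values on the log2 scale, so that a difference of 1 is a doubling.

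All mice were C57BL/6, and all lungs were taken 21 days after oropharyngeal bleomycin or its saline vehicle. Zmpste24 deficient mice (Zmpste24 -/- in every tissue, a model of accelerated aging with defects of the nuclear lamina) were labelled old at 16 weeks and young at 7 weeks. WT mice were labelled old at 82 weeks and young at 7 weeks. The arrays were run at 2 different times. Set 1 holds old Zmpste24 deficient lungs with bleomycin and with saline, young Zmpste24 deficient lungs with saline, and WT lungs with bleomycin and with saline whose age is given as 16 weeks. Titles call those WT lungs young and descriptions call them old, so they are named here 16-week WT. Set 2 holds young Zmpste24 deficient lungs with bleomycin and with saline, old WT lungs with bleomycin and with saline, and young WT lungs with saline. The old Zmpste24 deficient lungs and the old WT lungs thus lie in different sets, and only young Zmpste24 deficient saline lungs were run in both.

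A microRNA is made as a hairpin that Drosha cuts from a longer transcript and Dicer trims to a short duplex, of which 1 strand guides Argonaute to messenger RNAs. Pairing rests mainly on the seed, the bases 2 to 8 from the 5′ end, and lowers the level or the translation of the target. The miR-29 family pairs with messages of many collagens and of elastin. In fibroblasts it is lowered by TGF-beta. miR-145 is abundant in smooth muscle, where it is made together with miR-143. The array reads the region of the hairpin gene and does not tell the arms from each other or the mature form from the precursor.

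The mature sequences that the members share or differ in are given here because seed and neighbourhood set the groups in which they are described below. Capitals mark the seed, and sequences and positions are those of RefSeq on GRCm38.p6. Sequences of 5 of the 6 members were matched by name. Mir29a (chr6:31062660-31062747, minus strand) and Mir29b-1 (chr6:31063023-31063093, minus strand) lie 275 bases apart, and with miR-29c-3p their 3p arms share the seed AGCACCA.
mmu-miR-29a-3p: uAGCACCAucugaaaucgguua
mmu-miR-29b-3p: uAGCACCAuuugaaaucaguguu
mmu-miR-29c-3p: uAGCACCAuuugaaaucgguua
mmu-miR-27a-3p: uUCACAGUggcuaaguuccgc
mmu-miR-27b-3p: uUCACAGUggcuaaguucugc
mmu-miR-23a-3p: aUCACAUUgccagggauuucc
mmu-miR-491-5p: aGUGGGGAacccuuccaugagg
Counted from the 5′ end of miR-29a-3p, miR-29c-3p differs at 1 position (C10U) and miR-29b-3p at 4 of the 22 positions compared (C10U, G18A, U21G and A22U). All of these lie outside the seed. Mir23a (chr8:84208518-84208592) and Mir27a (chr8:84208672-84208758) lie on the plus strand with 79 bases between them, followed after 56 bases by Mir24-2. miR-27a-3p and miR-27b-3p share the seed UCACAGU and differ at C19U, whereas the seed of miR-23a-3p is UCACAUU. Mir491 (chr4:88122040-88122125, plus strand) lies within the span of Focad, a gene coding for the protein focadhesin, 27420 bases from its start. miR-491-5p shares its seed with none of the arms printed here.

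Zmpste24 RNA lay between 5.29 and 6.56 in 12 of the 15 arrays labelled Zmpste24 deficient, against 7.93 to 8.68 in the 15 WT arrays. The other 3 arrays, all labelled young Zmpste24 deficient with saline (set 1 replicate 2, set 2 replicates 2 and 3), stood at 7.55 to 7.93. The place of the probes relative to the deletion was not looked up. One old Zmpste24 deficient saline array (replicate 3) correlated least with the rest (mean r 0.944, the others 0.968 or more). The 12 markers of lung epithelium averaged between 10.74 and 11.55 in every array. In whole-lung RNA, fewer cells of a type and less RNA per cell cannot be told apart.

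Of the members, 3 were bright and 3 were dim. Mir27a averaged 7.48 over the 30 arrays, Mir23a 7.29 and Mir145a 6.41. Mir29a averaged 3.68, Mir491 3.44 and Mir29b-1 2.70, all under 5.2, a level below which 265 of the 478 microRNA genes (55.4%) and 25.1% of all genes lay. At such levels a difference on the log2 scale can understate the change. The spread within groups did not follow brightness. The pooled within-group SD was 0.26 for Mir27a, 0.36 for Mir23a, 0.45 for Mir145a, 0.31 for Mir491, 0.48 for Mir29a and 0.27 for Mir29b-1.

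**Figure D1:**
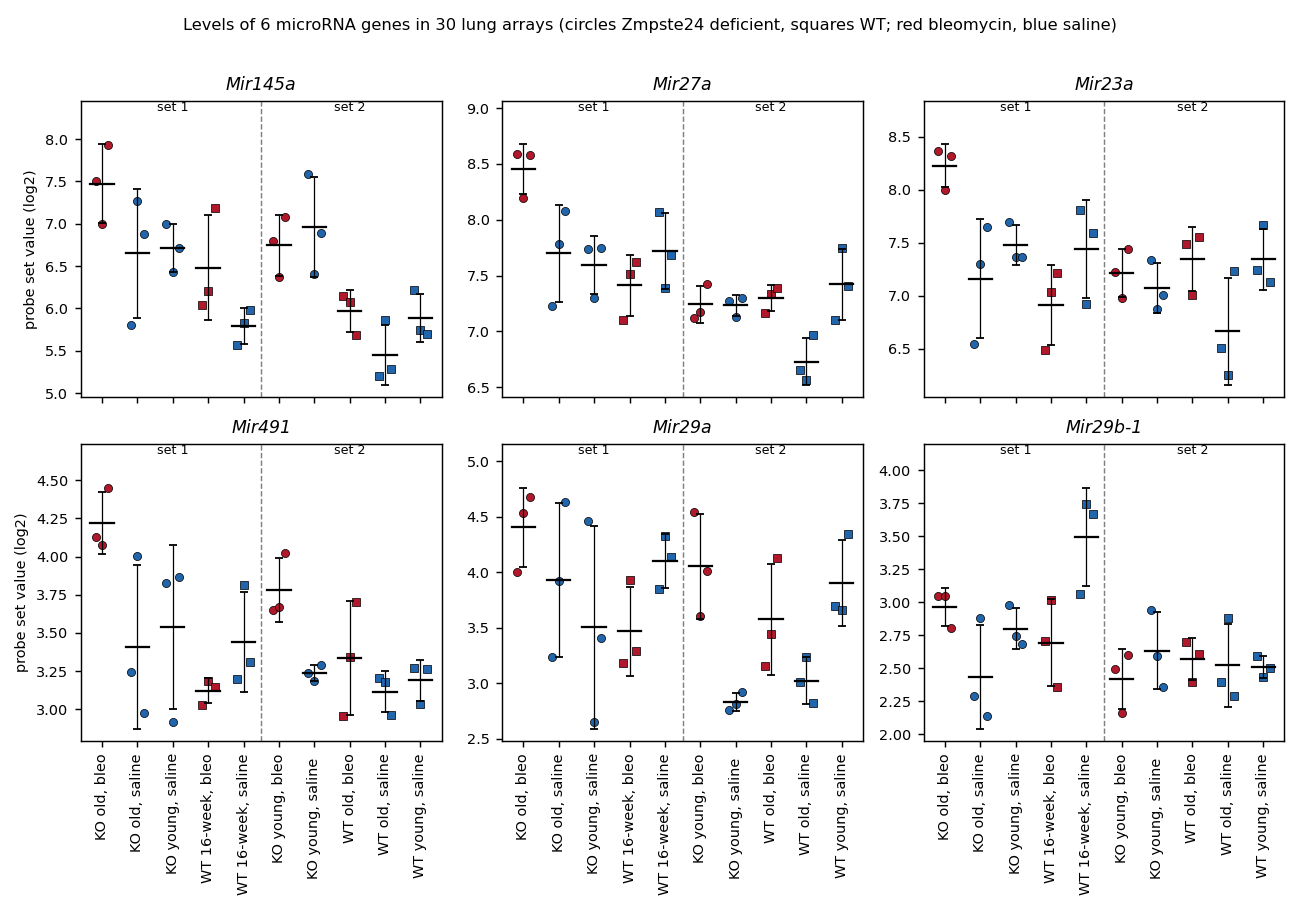
Probe set values (log2) of the 6 microRNA genes in each of the 30 arrays, with the group mean (bar) and SD (whisker) over 3 arrays; KO is Zmpste24 deficient, bleo is bleomycin, and the dashed line parts both array sets. Injured old Zmpste24 deficient lungs have the highest mean for every gene but Mir29b-1, with means of 8.45 for Mir27a, 8.23 for Mir23a and 4.22 for Mir491 and no overlap with the next group for these 3. The share of all genes without such overlap was not counted.

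The group of injured old Zmpste24 deficient lungs had the highest mean of the 10 groups for 5 of the 6 genes and the second highest for Mir29b-1. For Mir27a, Mir23a and Mir491 its 3 arrays lay above all arrays of the next group in the order. For Mir145a and Mir29a they overlapped with it, so that their first place is not beyond the spread. The share of all genes parted in this way from the next group was not counted. All bleomycin arrays lay above all saline arrays for 12.7% of all genes in old deficient lungs. That share was 12% in old WT, 7.4% in 16-week WT and 15% in young deficient lungs. Old WT saline lungs had the lowest mean for Mir145a, Mir27a, Mir23a and Mir491. Since the study picked these genes by comparing injured old Zmpste24 deficient with injured old WT lungs on these same arrays, the place of both groups in that comparison is not independent evidence. The study also measured mature miR-23a, miR-27a, miR-29a, miR-29b and miR-145a by quantitative PCR and reports them as increased. Those measurements are not part of the values here.

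In injured old lungs, 4 of the 6 genes (Mir145a, Mir27a, Mir23a and Mir491) passed the limma test at an adjusted p under 0.05 over all genes, all 4 higher in Zmpste24 deficient than in WT lungs. Over all genes, 14.1% passed and 4.98% passed with a higher level. The differences were 1.51 for Mir145a (standard error 0.33), 1.16 for Mir27a (0.20), 0.88 for Mir23a (0.27) and 0.88 for Mir491 (0.23). Those of Mir29a (0.83, standard error 0.35) and Mir29b-1 (0.40, standard error 0.21) did not pass, although Mir29a did with array weights (0.90). In 5 of the 6 genes all 3 deficient arrays lay above all 3 WT arrays, which 14.4% of all genes did. For this pair of groups, set, age (16 against 82 weeks) and genotype cannot be told apart. With array set as a term, estimated from the young Zmpste24 deficient saline lungs of both sets, the differences were 1.76 for Mir145a, 0.79 for Mir27a, 0.47 for Mir23a, 0.58 for Mir491, 0.15 for Mir29a and 0.23 for Mir29b-1, and only Mir145a passed. The array of injured old Zmpste24 deficient lungs that weighed most was replicate 3, without which 2 of the 6 passed.

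Within set 1, injured old Zmpste24 deficient lungs were also set against injured 16-week WT lungs. Mir145a, Mir27a, Mir23a and Mir491 rose (4 of 6), where 15.8% of all genes passed and 7.37% rose. The differences were 1.31 for Mir23a (standard error 0.27, adjusted p = 0.000949), 1.10 for Mir491 (0.23, adjusted p = 0.00148), 1.04 for Mir27a (0.20, adjusted p = 0.000634) and 0.99 for Mir145a (0.33, adjusted p = 0.0399). The call of Mir145a was lost without injured deficient replicate 1 or 3 or injured 16-week replicate 1 or 2, where it was 0.77 to 0.98. Mir29a differed by 0.94 (adjusted p = 0.072, and under 0.05 in 5 of 18 alternative fits, with values of 0.94 to 1.17) and Mir29b-1 by 0.27 (adjusted p = 0.446). The injured deficient arrays are the same as in the comparison above, so both comparisons share the arrays for which the genes were picked. Without saline lungs beside them, these values do not part genotype from response to injury.

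**Figure D2:**
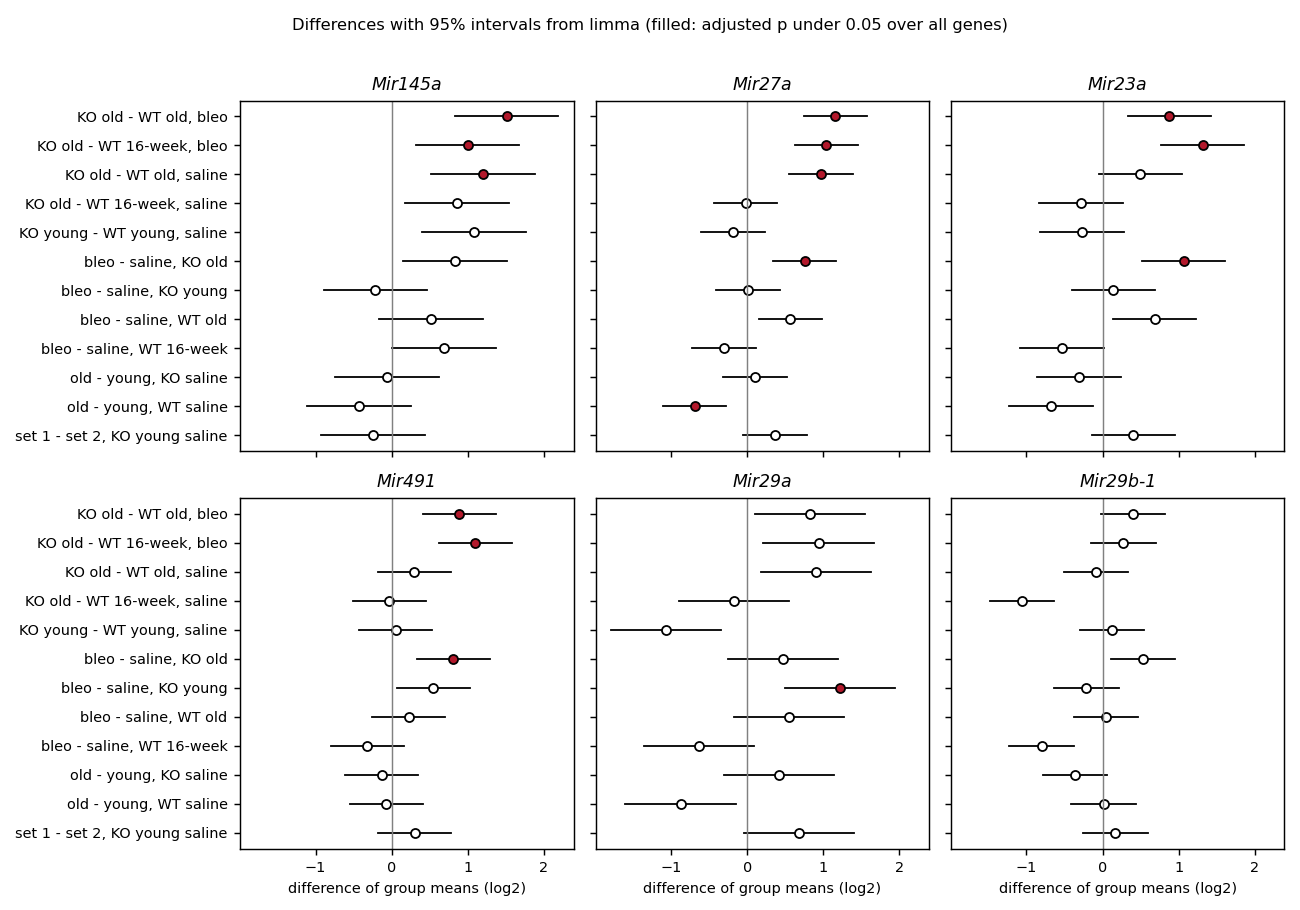
Differences of group means (log2, x axis) of the 6 genes in 12 comparisons, with 95% intervals from limma, filled where the adjusted p over all genes was under 0.05. Most filled points lie in the comparisons that hold injured old Zmpste24 deficient lungs, such as Mir23a at 1.31 against injured 16-week WT lungs. Mir145a and Mir27a are also filled between saline lungs of old deficient and old WT mice, Mir27a between old and young WT lungs and Mir29a in young deficient lungs, while the comparison of the sets in young deficient saline lungs has none.

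The response to bleomycin was tested within each genotype and age. In old Zmpste24 deficient lungs, Mir27a, Mir23a and Mir491 rose with bleomycin (3 of 6, where 10.6% of all genes passed and 7.32% rose). The injured arrays here are among those for which the genes were picked, so this count is not independent of that choice. In young Zmpste24 deficient lungs, Mir29a alone passed (1 of 6, where 4.73% of all genes passed). In old WT lungs and in 16-week WT lungs none of the 6 passed limma's test, where 1.01% and 0.721% of all genes passed. Markers of heart muscle moved in the same direction. The 12 markers averaged 7.73, 7.78 and 7.61 in injured old Zmpste24 deficient lungs, against 7.09, 7.38 and 6.73 with saline, and 3 rose and 0 fell (Tnnt2, Myl7 and Sln). In 16-week WT lungs they averaged 7.08, 7.88 and 7.33 with bleomycin, against 8.30, 7.75 and 7.71 with saline, where 0 passed. In injured old WT lungs they averaged 7.31, 7.30 and 7.39, and 2 of the 12 were higher in injured old deficient lungs. Their part in the microRNA values was not tested. At an unadjusted p under 0.05, Mir27a and Mir23a passed in old WT lungs and Mir145a and Mir29b-1 in 16-week WT lungs. The share of all genes under that unadjusted limit was not counted, so no excess can be read from these.

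The difference between such responses was tested directly. The response of old Zmpste24 deficient lungs exceeded that of 16-week WT lungs for 4 of the 6 genes, where 4.37% of all genes passed and 2.62% passed with a larger response. The injured old deficient arrays for which the genes were picked enter this test, so the count is not independent of that choice. The differences of responses were 1.60 for Mir23a (standard error 0.38, adjusted p = 0.0159), 1.33 for Mir29b-1 (0.29, adjusted p = 0.00944), 1.13 for Mir491 (0.33, adjusted p = 0.0481) and 1.06 for Mir27a (0.29, adjusted p = 0.033). The call of Mir491 was lost in 16 of 24 alternative fits, that of Mir27a in 8 of 25, that of Mir23a in 3 of 25 and that of Mir29b-1 in 1 of 24, and a fit of only these groups called none of them. Of the 12 heart muscle markers 4 also had a larger response in old deficient lungs and 0 a smaller one, with a median difference of responses of 1.13. Mir29a gave 1.11 (0.50, adjusted p = 0.224) and Mir145a 0.14 (95% interval -0.83 to 1.10). The response of old Zmpste24 deficient lungs did not differ from that of old WT lungs by this test for any of the 6 (1.39% of all genes passed), with unadjusted p-values all above 0.05. The estimates were 0.31 for Mir145a, 0.19 for Mir27a, 0.38 for Mir23a, 0.59 for Mir491, -0.08 for Mir29a and 0.48 for Mir29b-1. Their 95% intervals reached up to 1.27 for Mir145a and Mir491, 0.78 for Mir27a, 1.16 for Mir23a, 0.95 for Mir29a and 1.08 for Mir29b-1, so that a larger response of up to that size lies within the intervals.

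Mir27a and Mir23a, made from 1 cluster on chromosome 8, are described together. Mir27a stood at 8.58, 8.20 and 8.58 in injured old Zmpste24 deficient lungs, against 7.23, 7.78 and 8.08 in old Zmpste24 deficient saline lungs. All injured arrays lay above all saline arrays, and the difference was 0.76 (standard error 0.20, adjusted p = 0.0169). In old WT lungs it stood at 7.17, 7.34 and 7.39 with bleomycin, against 6.66, 6.57 and 6.97 with saline. Those arrays did not overlap either, a mean difference of 0.57 (standard error 0.20) that did not pass (adjusted p = 0.217). In 16-week WT lungs Mir27a stood at 7.10, 7.51 and 7.63 with bleomycin, against 8.07, 7.39 and 7.69 with saline, and in young Zmpste24 deficient lungs at 7.12, 7.18 and 7.43 with bleomycin, against 7.27, 7.13 and 7.30 with saline of the same set. In both, the groups overlapped.

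Mir23a stood at 8.37, 8.0 and 8.32 in injured old Zmpste24 deficient lungs, against 6.55, 7.30 and 7.65 in old Zmpste24 deficient saline lungs. The saline arrays spread widely, but all lay below the injured ones, and the difference was 1.06 (standard error 0.27, adjusted p = 0.0108). In old WT lungs it stood at 7.49, 7.00 and 7.55 with bleomycin, against 6.51, 6.26 and 7.23 with saline, and in 16-week WT lungs at 6.49, 7.04 and 7.21 with bleomycin, against 7.81, 6.93 and 7.60 with saline. These groups overlapped. In young Zmpste24 deficient lungs it stood at 7.22, 6.98 and 7.44 with bleomycin, against 7.34, 6.87 and 7.01 with saline. Without old deficient saline replicate 1, the lowest of its group for both genes, the differences between injured and saline old deficient lungs were 0.52 for Mir27a (adjusted p = 0.0836) and 0.76 for Mir23a (adjusted p = 0.0571), and none of the 6 genes passed.

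In saline lungs, Mir27a was higher in old Zmpste24 deficient than in old WT lungs by 0.97 (standard error 0.20, adjusted p = 0.00183), with no overlap, as for 6.58% of all genes. The groups again differ in set and in age, and with set as a term the difference was 0.61 (adjusted p = 0.297). Against 16-week WT saline lungs of the same set the difference was -0.02 (95% interval -0.44 to 0.40). In WT saline lungs Mir27a was lower at old than at young age, at 6.66, 6.57 and 6.97 in old lungs, against 7.10, 7.75 and 7.41 in young lungs, both in set 2. The difference of -0.69 (standard error 0.20, adjusted p = 0.0325) was the only call among the 6 genes in that comparison, where 8.12% of all genes passed. It was lost in 4 of the 6 fits that left out 1 array of these groups (old replicates 1 and 2, young replicates 2 and 3), where it was between -0.70 and -0.53. Mir23a differed by -0.68 (standard error 0.27, adjusted p = 0.129). Heart muscle markers were lower in the same comparison, at 6.91 to 6.95 per array in old lungs, against 7.71 to 8.37 in young lungs (8 of 12 fell), as were endothelial markers, at 9.22 to 9.26 against 9.72 to 9.91 (6 of 12 fell and 1 rose). All 12 macrophage markers were higher at old age. The part of these in the change of Mir27a was not tested.

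**Figure D3:**
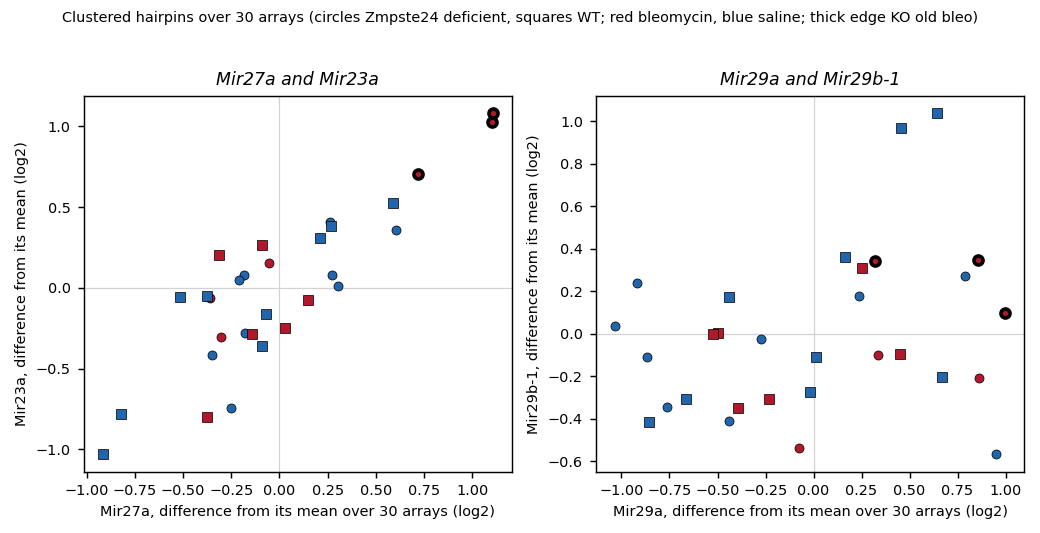
Each point is 1 of the 30 arrays, placed by the difference of each gene from its own mean over the arrays (log2), for Mir23a against Mir27a (left) and Mir29b-1 against Mir29a (right). The first pair lies near a line (r = 0.87), with injured old Zmpste24 deficient lungs (thick edges) at its upper end, and the second pair is scattered (r = 0.30).

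Both genes of the chromosome 8 cluster moved together from array to array. Over the 30 arrays Pearson's r was 0.87, and after removal of the group means it was 0.82, so that arrays of the same group deviated together. The pair Mir29a and Mir29b-1, which also share a transcript region, had r = 0.30 over the arrays and 0.25 within groups, but both are dim. These correlations share the normalization of each array and are given as a description. The third hairpin of the cluster, Mir24-2, has no probe set of its own. Of 2 probe sets that name it with Mir3074-2, the brighter stood at 5.43, 5.54 and 5.74 in injured old Zmpste24 deficient lungs, against 4.57, 5.26 and 5.13 with saline, and between 4.25 and 5.21 in all other arrays. Its injured old deficient arrays were therefore the highest 3 of the 30. The other probe set stood at 2.59 to 3.61. Both averaged under 5.2, the level called dim above.

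The paralogous cluster on chromosome 13 (Mir23b, Mir27b and Mir24-1, within the gene Aopep, an aminopeptidase) did not show this order. Mir23b stood at 7.38, 7.43 and 7.33 in injured old Zmpste24 deficient lungs, against 7.19, 7.59 and 7.70 in injured old WT lungs and 7.03, 7.62 and 7.66 in injured 16-week WT lungs. The differences were -0.11 (standard error 0.26) and -0.06 (0.26), and neither passed. The probe set naming Mir27b with Aopep stood at 8.08, 7.97 and 8.01 in injured old deficient lungs, against 8.20, 8.49 and 8.80 in injured old WT lungs. Of 2 probe sets that name Mir24-1 with Mir3074-1, the brighter stood at 6.18, 6.03 and 6.28 in injured old deficient lungs and at 6.31, 6.48 and 6.51 in injured old WT lungs. In WT saline lungs Mir23b was lower at old than at young age (a difference of -1.07, standard error 0.26, adjusted p = 0.00804). Aopep itself lay between 7.28 and 7.73 in all arrays.

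Mir145a, on chromosome 18 (its sequence was not used here), had a higher mean in each Zmpste24 deficient group than in any WT group, and none of its responses to bleomycin passed. It stood at 7.50, 7.00 and 7.93 in injured old Zmpste24 deficient lungs, against 5.80, 7.27 and 6.88 in old Zmpste24 deficient saline lungs. These groups overlapped, and the difference of 0.83 (standard error 0.33) did not pass (adjusted p = 0.11). In WT lungs, it stood at 6.14, 6.07 and 5.69 in injured old lungs, against 5.21, 5.86 and 5.29 in old saline lungs, and at 6.05, 6.20 and 7.19 in injured 16-week lungs, against 5.56, 5.82 and 5.99 in 16-week saline lungs. In the 16-week lungs all injured arrays lay above all saline arrays, by 0.69 on average (standard error 0.33, adjusted p = 0.517). Young Zmpste24 deficient lungs had 6.79, 6.37 and 7.08 with bleomycin, against 7.59, 6.41 and 6.89 with saline in set 2, and the saline lungs of set 1 had 7.00, 6.42 and 6.72. The 5 groups labelled Zmpste24 deficient thus held the 5 highest means, from 6.65 to 7.48, and the 5 WT groups the 5 lowest, from 5.45 to 6.48, although neighbours in that order overlapped.

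Tested in saline lungs, which the choice of the genes did not use, Mir145a was higher in old Zmpste24 deficient than in old WT lungs by 1.20 (standard error 0.33, adjusted p = 0.0158). With Mir27a this made 2 of the 6 genes, where 13.7% of all genes passed and 3.44% rose. The groups differ in set and in age (16 against 82 weeks), as those used for the choice did. A shift with set or age would enter both comparisons, so this is not a separate test of genotype. The call for Mir145a was lost without either old deficient saline replicate 2 (0.89) or 3 (1.08), old WT saline replicate 1 (1.08) or 3 (1.12), and with set as a term (1.45, adjusted p = 0.0975). It was also lost with array weights and in a fit of only these groups, in all in 8 of 19 alternative fits. All 12 macrophage markers fell in this comparison. In young lungs of set 2 Mir145a was higher in Zmpste24 deficient than in WT saline lungs by 1.08 (standard error 0.33), but did not pass (adjusted p = 0.0859). Its arrays did not overlap there, and 12.6% of all genes were likewise higher without overlap. In the same deficient arrays, skeletal muscle markers averaged 7.45 to 7.52 against 5.64 to 5.69 in young WT lungs, squamous markers 7.20 to 7.29 against 4.88 to 4.99 and smooth muscle markers 8.61 to 8.77 against 8.27 to 8.54. Their part in the difference was not tested. None of the 6 passed there, where 2.88% of all genes passed. At an unadjusted p under 0.05, for which the share of all genes was not counted, Mir145a and Mir29a did. Of those 3 young deficient arrays, replicates 2 and 3, at 6.41 and 6.89, are the ones with Zmpste24 near the WT level, and the replicate with low Zmpste24 had the highest Mir145a, 7.59. Within set 1, old deficient and 16-week WT saline lungs differed by 0.86 (standard error 0.33, adjusted p = 0.445). In that comparison none of the 6 genes passed, where 0.00902% of all genes passed. At an unadjusted p under 0.05, for which the share of all genes was again not counted, Mir145a and Mir29b-1 did.

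**Figure D4:**
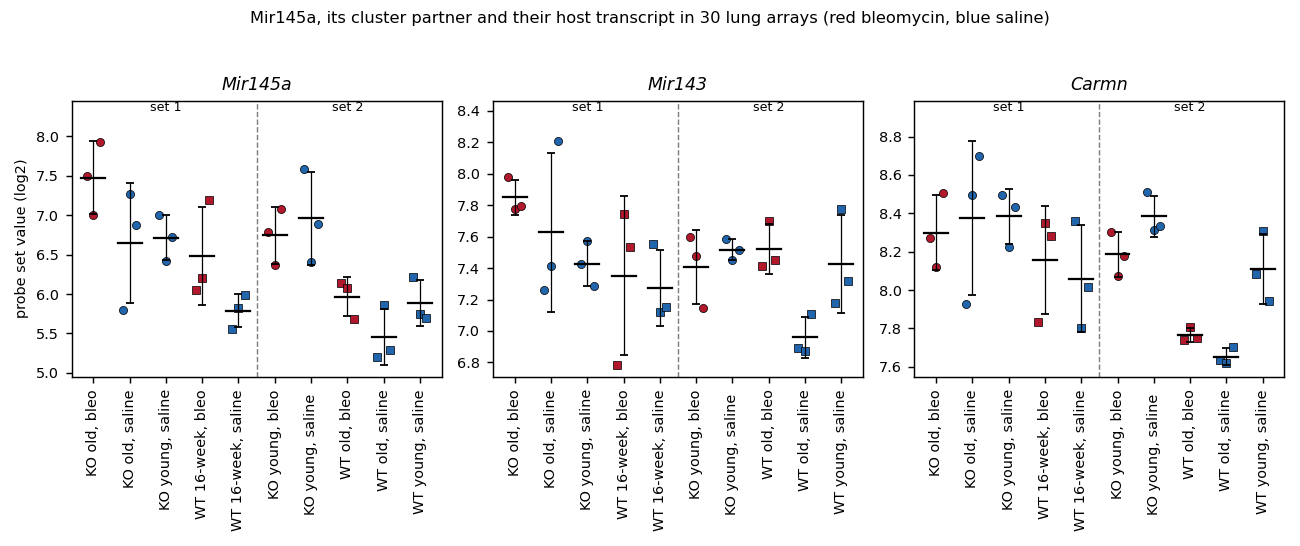
Probe set values (log2) of Mir145a, of Mir143 from the same cluster and of Carmn, the long RNA over it, in the 30 arrays, with group means (bars) and SD (whiskers) over 3 arrays. Carmn is lower in both groups of old WT lungs, at 7.62 to 7.81, than in all Zmpste24 deficient arrays, at 7.93 to 8.70, and Mir143 has its lowest group in old WT saline lungs, at 6.88 to 7.11.

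Mir143, whose hairpin is cut from the same transcript, and Carmn, a long RNA of smooth muscle that overlaps the cluster, were read by probe sets of their own. Mir143 stood at 7.98, 7.77 and 7.79 in injured old Zmpste24 deficient lungs, against 7.41, 7.70 and 7.45 in injured old WT lungs, a difference of 0.33 (standard error 0.22, adjusted p = 0.342). In saline lungs it was higher in old Zmpste24 deficient than in old WT lungs by 0.67 (standard error 0.22, adjusted p = 0.0389). Carmn was higher in old Zmpste24 deficient than in old WT lungs with bleomycin (0.53, standard error 0.17, adjusted p = 0.0335) and with saline (0.72, standard error 0.17, adjusted p = 0.00487). In old Zmpste24 deficient lungs it did not differ between bleomycin and saline beyond the spread (-0.07, 95% interval -0.42 to 0.27). The old deficient and old WT groups differ in set and in age. Within set 1, Carmn averaged 8.30 in injured old deficient against 8.16 in injured 16-week WT lungs, and 8.37 against 8.06 with saline. Both pairs overlapped. Mir143 averaged 7.85 against 7.35 with bleomycin, without overlap, and 7.63 against 7.28 with saline, with overlap. In WT saline lungs of set 2, Carmn averaged 7.65 at old and 8.11 at young age, and Mir143 6.96 and 7.42. Of 14 markers of smooth muscle and myofibroblasts, 1 rose and 0 fell in injured old Zmpste24 deficient against injured old WT lungs, with a median difference of 0.19, against -0.08 over all genes. Their mean level was 8.08 to 8.15 per array in injured old deficient lungs and 7.60 to 8.10 in injured old WT lungs. In the saline lungs, 2 rose and 2 fell, with levels of 7.59 to 8.44 in old deficient and 8.07 to 8.11 in old WT lungs. The part of smooth muscle in the difference of Mir145a was not tested.

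Mir491 was dim in every array. It stood at 4.13, 4.08 and 4.45 in injured old Zmpste24 deficient lungs, against 3.24, 4.01 and 2.98 with saline, and the difference of 0.81 (standard error 0.23, adjusted p = 0.0259) passed. It stood at 2.96, 3.34 and 3.71 in injured old WT lungs, against 3.20, 3.18 and 2.96 in old WT saline lungs, and at 3.03, 3.18 and 3.15 in injured 16-week WT lungs, against 3.20, 3.82 and 3.31 in 16-week saline lungs. In 16-week WT lungs all injured arrays lay below all saline arrays, as for 7.99% of all genes, with a difference of -0.32 (standard error 0.23, adjusted p = 0.771). In young Zmpste24 deficient lungs it stood at 3.65, 3.67 and 4.02 with bleomycin, against 3.24, 3.19 and 3.29 with saline in the same set. Those groups did not overlap, and the difference of 0.54 (standard error 0.23) did not pass (adjusted p = 0.237). No saline array of any group exceeded 4.01. Without the old deficient saline array that correlates least, which had the lowest Mir491 of its group, the difference between injured and saline old deficient lungs was 0.59 (adjusted p = 0.161).

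Focad, in whose span Mir491 lies, was read at 6.59, 6.57 and 6.73 in injured old Zmpste24 deficient lungs, against 6.26, 6.32 and 6.37 in injured old WT lungs and 6.29, 6.46 and 6.38 in injured 16-week WT lungs. The deficient arrays lay above both sets of WT arrays. The differences were 0.32 (standard error 0.13, adjusted p = 0.103) and 0.25 (0.13, adjusted p = 0.205) and did not pass. Between bleomycin and saline in old deficient lungs, Focad differed by 0.19 (standard error 0.13).

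Mir29a and Mir29b-1, both dim, followed each other only loosely (r = 0.30 over the arrays). Mir29a stood at 4.0, 4.54 and 4.67 in injured old Zmpste24 deficient lungs, against 3.24, 3.92 and 4.63 with saline, and stood at 3.15, 3.45 and 4.13 in injured old WT lungs, against 3.01, 3.24 and 2.82 with saline. Both pairs overlapped. In 16-week WT lungs Mir29a stood at 3.18, 3.93 and 3.29 with bleomycin, against 3.84, 4.32 and 4.14 with saline, with overlap. That difference of -0.64 (standard error 0.35) did not pass, and the mean of Mir29b-1 was also lower with bleomycin there. In young Zmpste24 deficient lungs of set 2 Mir29a stood at 4.54, 3.60 and 4.01 with bleomycin, against 2.76, 2.81 and 2.92 with saline, with no overlap and a difference of 1.22 (standard error 0.35, adjusted p = 0.0416). These saline arrays have the lowest mean of Mir29a of all groups, and the saline arrays of the same genotype and age in set 1 stood at 4.47, 2.65 and 3.40. The call was lost without any one of the saline arrays, without injured replicate 1 or 3, and without the arrays whose Zmpste24 is near the WT level (1.29, adjusted p = 0.284). The last of these fits keeps 1 saline array, which is assumed to vary like the other groups. In those saline lungs the 11 markers of squamous epithelium averaged 7.20 to 7.29 per array, against 4.82 to 5.10 in the injured lungs, and 8 of 11 fell, while 9 of 12 macrophage markers rose. In the injured against the saline lungs, skeletal muscle markers averaged 5.48 to 5.69 against 7.45 to 7.52, heart muscle markers 6.68 to 7.05 against 7.97 to 8.05 and smooth muscle markers 7.91 to 8.03 against 8.61 to 8.77. The part of these in the change of Mir29a was not tested. In the same saline arrays Mir29a was lower than in young WT lungs, which stood at 3.69, 3.66 and 4.35, by a difference of -1.07 (standard error 0.35, adjusted p = 0.123).

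Mir29b-1 stood at 3.05, 3.05 and 2.80 in injured old Zmpste24 deficient lungs, against 2.29, 2.88 and 2.14 with saline. It stood at 2.71, 3.01 and 2.35 in injured 16-week WT lungs, against 3.06, 3.74 and 3.67 with saline, the group with its highest mean of the series (3.49). The lower level with bleomycin in 16-week WT lungs (-0.80, standard error 0.21) did not pass (adjusted p = 0.0612). The difference of responses that passed for Mir29b-1 thus rested in part on these 16-week saline arrays. Between the saline groups, old deficient lungs lay below 16-week WT lungs by a difference of -1.06 (standard error 0.21, adjusted p = 0.1). In injured old WT lungs Mir29b-1 stood at 2.70, 2.40 and 2.61, against 2.40, 2.88 and 2.29 in old WT saline lungs, which did not differ beyond the spread.

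The other miR-29 genes, Mir29b-2 and Mir29c on chromosome 1, share 1 probe set with the transcript A330023F24Rik, which was bright. It stood at 7.24, 7.35 and 7.13 in injured old Zmpste24 deficient lungs, against 6.36, 6.84 and 6.91 with saline, and at 6.77, 6.88 and 7.29 in injured old WT lungs, against 6.19, 6.34 and 6.25 with saline. In both genotypes at old age all injured arrays lay above all saline arrays. In 16-week WT lungs the order was the other way, at 6.10, 6.73 and 6.25 with bleomycin, against 7.33, 6.78 and 6.87 with saline. Probe sets that name several genes were not in the fit, and these values have no test.

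Messages with described miR-29 sites were lower in injured old Zmpste24 deficient lungs. Col1a1, a chain of type I collagen, stood at 7.85, 7.61 and 7.93 there, against 10.64, 8.56 and 8.81 in injured old WT lungs and 10.99, 10.67 and 9.94 in injured 16-week WT lungs. Col3a1, the chain of type III collagen, stood at 7.17, 7.31 and 7.18, against 9.65, 8.39 and 8.53 in injured old WT lungs and 10.37, 10.08 and 9.55 in injured 16-week WT lungs. Tgfb1, the growth factor that drives matrix production, stood at 8.41, 8.54 and 8.28, against 9.53, 9.42 and 9.47 and against 9.97, 9.53 and 9.58 in these WT groups. None of the 3 overlapped with either WT group. These 3 are genes that the study itself named for this comparison with injured old WT lungs. They are also among the measured targets counted next, so those counts are not independent of that choice.

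Of 23 measured miR-29 targets, 20 fell and 0 rose in injured old Zmpste24 deficient against injured 16-week WT lungs, where 8.48% of all genes fell. Their median difference was -1.13, against -0.02 over all genes. Col3a1 (-2.78, standard error 0.28, adjusted p = 1.91e-07), Col1a1 (-2.74, 0.38, adjusted p = 1.35e-05), Mmp2, a gelatinase (-2.56, 0.36), Col1a2 (-2.23, 0.31), the collagen chaperone Serpinh1 (-1.80, 0.29), the growth factor Igf1 (-1.60, 0.23) and elastin, Eln (-1.55, 0.38) fell most. Nid1 (-0.63), Dnmt3b (0.02) and Mcl1 (0.23) did not pass. Against injured old WT lungs 8 of the 23 fell and 0 rose, where 9.08% of all genes fell, with a median of -0.45 against -0.08. With set as a term 2 of the 23 fell, and without injured old WT replicate 1, whose Col1a1 was the highest of its group, 3 fell.

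**Figure D5:**
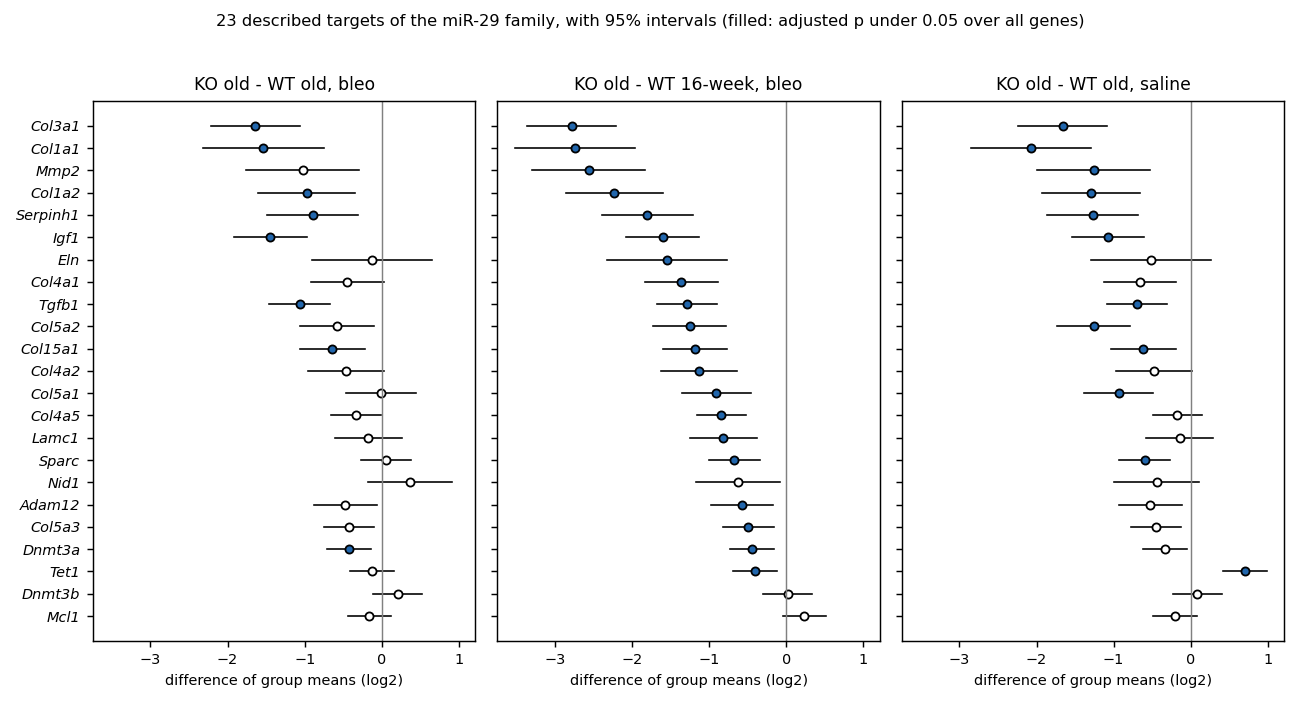
Differences of group means (log2, x axis) with 95% intervals for 23 described miR-29 targets in injured old Zmpste24 deficient against injured old WT lungs (left) and injured 16-week WT lungs (middle), and in saline lungs of old deficient against old WT mice (right), filled where the adjusted p was under 0.05. In the middle panel 20 are filled and negative, with Col3a1 lowest at -2.78, and 11 are lower already in the saline lungs on the right.

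The same messages were followed in the other comparisons. In saline lungs of old Zmpste24 deficient against old WT mice, 11 of the 23 fell and 1, Tet1, rose, where 10.2% of all genes fell, with a median of -0.60. Between bleomycin and saline, 3 fell in old Zmpste24 deficient lungs and 3 in old WT lungs, and 0 rose in either. Of all genes, 3.28% fell in the former and 0.505% in the latter. In 16-week WT lungs Eln and Igf1 rose and 0 fell, where 0.509% of all genes rose, with a median of 0.53 over the targets. The response of old deficient lungs was lower than that of 16-week WT lungs for 7 of the 23 (1.75% of all genes). Among them were Col3a1 (-2.02, standard error 0.40) and Col1a1 (-1.96, 0.54). That response was lower than the one of old WT lungs for 1 of the 23 (0.559% of all genes). In young saline lungs 7 of the 23 were higher in Zmpste24 deficient than in WT mice and 0 lower, where 1.33% of all genes were higher, and Mir29a there differed by -1.07 without passing. In that comparison fibroblast markers averaged 9.48 to 9.64 per array in deficient lungs, against 8.40 to 9.06 in WT lungs, and skeletal muscle markers 7.45 to 7.52 against 5.64 to 5.69. Macrophage markers moved in several of these comparisons. All 12 fell in injured old Zmpste24 deficient against injured old WT lungs, at a mean level of 7.62 to 7.93 per array against 9.20 to 9.26, and 9 of 12 fell against injured 16-week WT lungs, at 8.44 to 9.19. Of 12 markers of lung fibroblasts, 2 rose and 6 fell against injured 16-week WT lungs, at 8.53 to 8.63 per array against 9.07 to 9.27. That list holds Col1a1 and Col1a2, which are also among the 23 targets. The part of either cell type in the levels of the collagens was not tested.

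Of 11 described miR-145 targets, 4 fell and 0 rose in injured old Zmpste24 deficient against injured old WT lungs, and 5 fell and 0 rose against injured 16-week WT lungs, where 9.08% and 8.48% of all genes fell. Among those that fell, 3 are genes that the study named as lower in injured old deficient than in injured old WT lungs. They were named from these same arrays, so neither count is independent of that choice. Mmp12, the elastase of macrophages, stood at 6.59, 6.42 and 6.82, against 9.39, 10.79 and 10.82 in injured old WT lungs and 10.26, 9.59 and 10.95 in injured 16-week WT lungs. Its differences were -3.72 and -3.65 (standard error 0.39 for each). Mmp13, a collagenase, differed by -1.66 and -1.28 (0.27 for each) and Timp1, an inhibitor of such enzymes, by -1.71 and -1.68 (0.40 for each). Fscn1, which bundles actin, fell by 1.00 against injured old WT lungs and fell by 1.34 against injured 16-week WT lungs on the log2 scale. Sox9 differed by -0.22 from injured old WT lungs and fell by 0.52 against injured 16-week WT lungs. The markers of macrophages, which make Mmp12, moved as given above. The remaining 6, among them Klf4, Klf5, Smad3 and Tgfbr2, did not pass in either comparison.

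Of 5 measured miR-27a targets, 1 fell against injured old WT lungs, and 0 passed against injured 16-week WT lungs, where 14.1% and 15.8% of all genes passed. It was Pparg, a nuclear receptor of fat cells and alveolar macrophages. The study named it for the comparison with injured old WT lungs, so that count is not independent of the choice. Pparg stood at 6.85, 6.72 and 7.01, against 7.31, 7.81 and 8.17 in injured old WT lungs (difference -0.90, standard error 0.23, adjusted p = 0.00737) and 7.38, 7.05 and 6.94 in injured 16-week WT lungs (-0.27, adjusted p = 0.516). Foxo1, Spry2, Fbxw7 and Acta2 differed by 0.30, 0.34, -0.13 and 0.47 from injured old WT lungs without passing. Spp1, which the study also named, is not read by a probe set that names it alone. Of 6 measured miR-23a targets, 2 rose and 1 fell against injured old WT lungs, where 4.98% of all genes rose and 9.08% fell, and 3 rose and 1 fell against injured 16-week WT lungs, where 7.37% rose and 8.48% fell. Fbxo32, a ubiquitin ligase of muscle wasting, rose by 0.63 against injured old WT and by 0.81 against injured 16-week WT lungs, and Foxo3 by 0.44 and 0.54. Fas, a death receptor, differed by 0.40 and rose by 1.08. Cxcl12, a chemokine of stromal cells, fell by 1.15 on the log2 scale in the first comparison and fell by 1.40 in the second. Xiap and Trim63 did not pass in either. Of 3 miR-491 targets, Mmp9 differed by -0.01 and rose by 1.48, and Bcl2l1 differed by 0.34 and rose by 0.79.

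Genes whose pattern over the 30 arrays was most like each member were taken by Pearson's r among genes with a mean of 5.2 or more. For Mir145a these were the long RNA B130024G19Rik (r = 0.83), the protease gene Casp2 (0.80) and the acetyltransferase gene Sat2 (0.80). For Mir27a they were the pseudogene 4933409K07Rik (0.87), Mir23a (0.87) and Tas2r143, a bitter taste receptor (0.86), and for Mir23a they were Mir27a, Tas2r143 (0.83) and Ciart, a repressor of the circadian clock (0.81). Mir491 was most like Zfp119a (0.88), Zmym5 (0.87) and Carf (0.86). Mir29a was most like Ccdc28a (0.77), Luc7l2 (0.77) and Polr3gl (0.75). Mir29b-1, the dimmest member, had the lowest values, with Prkrip1 (0.71), Nsun7 (0.65) and Cbx1 (0.62).

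The size of a difference between array sets was read from young Zmpste24 deficient saline lungs, which were run in both. None of the 6 genes passed in set 1 against set 2 (0.00451% of all genes did), and none had an unadjusted p under 0.05. The differences were -0.25 for Mir145a, 0.36 for Mir27a, 0.40 for Mir23a, 0.30 for Mir491, 0.68 for Mir29a and 0.17 for Mir29b-1. For Mir23a the arrays did not overlap, at 7.69, 7.36 and 7.37 in set 1 and 7.34, 6.87 and 7.01 in set 2. Of all genes, 4.2% were likewise higher in set 1 without overlap. The standard errors of 0.20 to 0.35 leave room for a set difference of the size of several differences given above between old Zmpste24 deficient and old WT lungs. The 3 arrays with Zmpste24 near the WT level are in this pair of groups. Set 1 replicate 1 stood apart in its markers, at 5.65 for skeletal muscle and 5.19 for squamous epithelium, against 7.33 to 7.60 and 7.20 to 7.35 in the other 5 arrays. Every value with set as a term rests on these arrays. In the comparison of old with young Zmpste24 deficient saline lungs within set 1, none of the 6 genes passed (1.83% of all genes did), and none had an unadjusted p under 0.05.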

How the data were processed

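RNA of whole lungs (Trizol, per the labels) was labelled with biotin and read on Affymetrix Mouse Gene 2.0 ST microarrays, with 3 separate biological samples per group by the study's methods, which also name limma. The authors deposited log2 probe set values, with array medians of 5.95 to 6.19. How background was corrected and arrays were normalized, and whether sets were adjusted to each other, is not stated in the paper or labels read here, so values were used as deposited. Of 41345 probe sets, 23521 name 1 gene, 1820 several and 16004 none in the platform table. For each gene the single-gene probe set with the highest mean over 30 arrays was used. Group means of all 30 arrays were fitted in limma 3.58.1 (R 4.3.3). P-values were adjusted by Benjamini-Hochberg over 22180 genes for each of 14 comparisons, and called at an adjusted p under 0.05. The fit was tested on simulated data. The number of arrays limits the precision.

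The text names the 6 members, hairpins of their clusters and families, host genes, targets named in the study, up to 6 others per target list with the largest change, and the 3 most correlated genes. Members, lists and comparisons were chosen with earlier results of these data known. The authors' own comparisons were not used. As alternatives, arrays were quantile normalized or centred on their medians, genes with a mean under 5.2 were left out, probe sets of a gene were averaged, the variance was fitted with a trend and robustly, arrays were weighted, each comparison was fitted on its own groups, and the replicate number was a block. Array set was added as a term or as a random block, and each array in turn, or the doubtful arrays, were left out. Centring on the microRNA median was added after seeing the data. Tables were handled with pandas 2.3.3 and numpy 2.4.6 in python 3.11.15, with plots by matplotlib 3.10.9.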

Additional observations from a re-analysis of the deposited data

Results flagged for a closer look

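For 4 of the 6 genes the response to bleomycin differed between old Zmpste24 deficient and 16-week WT lungs by a test of the difference itself in limma. Of all genes, 4.37% passed this test and 2.62% passed with a larger response in old deficient lungs. For Mir23a the difference of responses was 1.60, with a change of 1.06 in old Zmpste24 deficient lungs and of -0.53 in 16-week WT lungs. For Mir27a it was 1.06, with changes of 0.76 and -0.30 in the same order. For Mir491 it was 1.13, with changes of 0.81 and -0.32. For Mir29b-1 it was 1.33, with changes of 0.53 and -0.80. In each of the 4, the group mean was higher with bleomycin in old Zmpste24 deficient lungs and lower in 16-week WT lungs, and of the changes in single groups only those of Mir27a, Mir23a and Mir491 in old deficient lungs passed.

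All 4 contrasts lie within array set 1. They hold the injured old deficient arrays for which the genes were picked, so the count of 4 is not independent of that choice. Both genotypes are given as 16 weeks old, although titles call the WT lungs young and descriptions call them old. In the same comparison 4 of 12 heart muscle markers had a higher response in old Zmpste24 deficient lungs and 0 a lower one (median 1.13), the direction of the 4 microRNA genes, and 7 of 12 macrophage markers had a lower one (median -1.22). Their part in the microRNA values was not tested. The call was lost in 16 of 24 alternative fits for Mir491, 8 of 25 for Mir27a, 3 of 25 for Mir23a and 1 of 24 for Mir29b-1. A fit of only these groups called none of the 4. Mir491 and Mir29b-1 are dim, with means of 3.44 and 2.70 over all arrays.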

How the results depend on the processing

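Without single arrays, the number of the 6 genes called ran from 2 to 4 for injured old Zmpste24 deficient against old WT lungs, 3 to 4 against 16-week WT lungs, 0 to 5 for the bleomycin response of old deficient lungs, 0 to 1 in 16-week WT lungs, 0 to 1 in young deficient lungs, 1 to 4 for the difference of responses from 16-week WT lungs, 1 to 4 for old deficient against old WT saline lungs, 0 to 1 against 16-week WT saline lungs and 0 to 2 for old against young WT lungs, and it was 0 throughout for the other 5 comparisons. The count for the response of old deficient lungs was 0 without saline replicate 1, 5 without saline replicate 2 and 1 without bleomycin replicate 3. For the difference of responses it was 1 without 16-week saline replicate 1 or bleomycin replicate 1. With set as a term, the counts were 1 for injured old deficient against old WT lungs and 0 for the saline lungs. Fits of only the groups compared called 0 genes for the response of old deficient lungs, 0 for the difference of responses from 16-week WT lungs, 0 for old deficient against old WT saline lungs, 2 for the response of young deficient lungs, 1 for young deficient against young WT lungs and 2 for old against young WT lungs. Array weights gave 2 for the response of old WT lungs, 1 of 16-week WT lungs and 2 of young deficient lungs, 1 for old deficient against old WT saline lungs, 2 for young deficient against young WT lungs and 3 for old against young WT lungs. Array weights also passed Mir29a in injured old deficient against injured old WT lungs (0.90, 5 genes in all) and against injured 16-week WT lungs (0.94), where it passed as well with quantile normalization (0.99), in a fit of only those groups (0.94), without 16-week bleomycin replicate 2 (1.17) and without the array that correlates least (0.94). Quantile normalization gave 2 for the difference of responses from 16-week WT lungs and 0 for old against young WT lungs, and centring on the microRNA median 0 for that age comparison. The filter on dim genes, which removes Mir491, Mir29a and Mir29b-1, gave 0 for the response of young deficient lungs and 2 for the difference of responses. For the response of young deficient lungs, set as a random block gave 0. That fit pools the young deficient saline arrays of both sets, and its consensus correlation within sets was -0.00621. Leaving out the arrays with Zmpste24 near the WT level keeps 1 saline array there, so no count is given for it. Without the array that correlates least, 1 gene was called in 16-week WT lungs and 1 in old deficient against old WT saline lungs. The share of all genes called moved over the fits as well. It ran from 0.555% to 16.9% for the response of old deficient lungs and from 0.284% to 6.03% for that of old WT lungs. For the difference of responses from 16-week WT lungs it ran from 0.699% to 7.46%, and for injured old deficient against old WT lungs from 3.40% to 25.6%.

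Signs turned only in values that had not passed. Mir29a in the difference of responses of old deficient and old WT lungs (-0.08) was 0.077 with quantile normalization, 0.34 with array weights, 0.27 without the array that correlates least and 0.13 with centring on the microRNA median, and -0.42 to 0.27 without single arrays. Without single arrays Mir145a ran from -0.12 to 0.62 and Mir27a from -0.047 to 0.38 in that comparison, and Mir145a from -0.29 to 0.49 in the difference from 16-week WT lungs and from -0.53 to 0.063 between sets. Mir29b-1 between sets was -0.11 without the arrays with Zmpste24 near the WT level, which leaves 1 array of set 2. In the replicate block, the call of Mir491 in the difference of responses from 16-week WT lungs was lost (adjusted p = 0.0597, 1.13), and no other call of the 6 genes changed. The replicate numbers do not pair the arrays, since the median correlation of deviations was -0.011 between arrays of the same number and 0.0056 between others. Dim signals limit what can be said of Mir491, Mir29a and Mir29b-1, and 3 arrays per group limit every difference.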

Other observations

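Of 9 measured genes of microRNA processing, Dicer1, which trims the hairpins, rose in injured old Zmpste24 deficient lungs against injured old WT lungs (0.46, standard error 0.13, limma adjusted p = 0.0187), against injured 16-week WT lungs (0.45, adjusted p = 0.0179) and against old deficient saline lungs (0.43, adjusted p = 0.0362). These comparisons share the injured deficient arrays, and 14.1%, 15.8% and 10.6% of all genes passed in them, in the order given. Tarbp2, a partner of Dicer, fell against injured old WT lungs (-0.43, adjusted p = 0.0312). Ago1 (-0.54, adjusted p = 0.00373) and Ago2 (-0.39, adjusted p = 0.033), which hold the mature strand, fell against injured 16-week WT lungs. The other genes of the list did not pass in these comparisons.

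Among the 478 microRNA genes, 24 rose and 16 fell in injured old Zmpste24 deficient against injured old WT lungs, where 4.98% of all genes rose and 9.08% fell, and 17 rose and 6 fell against injured 16-week WT lungs, where 7.37% and 8.48% did. With bleomycin, 15 rose and 8 fell in old deficient lungs, where 7.32% and 3.28% of all genes did, and 8 rose and 0 fell in old WT lungs, where 0.5% and 0.505% did. In saline lungs of old deficient against old WT mice, 39 rose and 4 fell, where 3.44% and 10.2% of all genes did, with a median difference of 0.15 over the microRNA genes and of -0.04 over all genes. These groups lie in different array sets and differ in age, and set, age and genotype cannot be told apart there.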
